A study of Mus musculus with 12 samples.

Results

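The 40 genes described here carry or regulate glycolysis and the response to low oxygen: 20 glycolytic enzymes and transporters, 13 other targets of the hypoxia-inducible factors (HIFs), and 7 genes that encode HIF subunits or proteins that control them. They were chosen by symbol, and all 40 were found among the 53379 genes of the count table. RNA was measured in bone marrow-derived macrophages (BMDMs) of 4 male C57Bl/6J mice, which were left untreated or were given 1 μM fenoterol, an agonist of the β2-adrenergic receptor (B2AR), for 1 h or for 4 h. Cells of each mouse entered all 3 groups, so there were 4 libraries per group and 12 in all. The mice were adult and carried no allele named in the labels, and the macrophages had been grown from marrow in L929-conditioned medium. No vehicle-treated group was analysed here, and the untreated BMDMs served as the control of both times.

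Glycolysis splits glucose into pyruvate in the cytosol, and lactate made from pyruvate leaves the cell through monocarboxylate transporters. Hexokinase, phosphofructokinase-1 and pyruvate kinase catalyze its irreversible steps, and most enzymes exist as isozymes encoded by separate genes. HIF-1 is a dimer of an oxygen-labile α subunit and a constant β subunit, and it binds the hypoxia response element in the promoters of many glycolytic genes. Prolyl hydroxylases and the ubiquitin ligase of the von Hippel-Lindau protein remove the α subunit when oxygen is present. In macrophages, a shift to glycolysis is best known from inflammatory activation. B2AR signals through cyclic AMP and the transcription factor CREB, which binds the cAMP response element.

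Each library held 14580533 to 24153284 counts, with medians of 18975206.5 in untreated, 19843792 in 1 h and 19543222.5 in 4 h libraries. Levels are given as normalized counts, that is, counts scaled by library size and TMM factor to the mean library. All 8 macrophage markers, *Cd68*, *Adgre1* and *Csf1r* among them, were expressed, with a sum of 35991 to 41418 CPM (counts scaled to a common library total). Markers on that list also moved with treatment: *Cd14*, a co-receptor for lipopolysaccharide, was at 617 to 749 CPM untreated, 3031 to 3466 at 1 h and 3430 to 4150 at 4 h, and *Mertk*, a receptor for dying cells, at 187.5 to 209, 156 to 176 and 67.7 to 74.7. At 4 h, *Itgam* (605 to 658.5 CPM) and *Fcgr1* (429 to 499) were also above and *Cd68* (1555 to 1878) below their untreated ranges of 459 to 485, 201 to 344 and 1895 to 2115 CPM. *Lyz2*, the highest of the markers, was below its untreated range too, at 20573 to 24254 CPM at 4 h against 24399 to 26327. The summed markers of fibroblasts reached 23.7 to 72.9 CPM and those of neutrophils and their precursors 16.9 to 31.7, with ranges that overlapped between the 3 groups. Markers of dendritic, B, T and mast cells summed to at most 1.35 CPM in any library, and the 3 erythroid markers had no count.

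More members rose than fell at both times, led by *Vegfa* and *Slc16a3*. Fold changes are on the log2 scale with the standard error of the fit, and p-values are from edgeR's quasi-likelihood test, adjusted over all genes tested. Of the 40 members, 39 passed the filter on low counts; *Adm*, which encodes the peptide adrenomedullin, did not, with 58 counts over the 12 libraries. At 1 h, 13 of the 39 rose and 3 fell at an adjusted p under 0.05, while 10% of all 12386 genes tested were called higher and 10.1% lower (20.1% called in all, against 41.0% of the members). With scaling by library size alone, 32.5% in place of 49.8% of all genes called at 1 h were higher. At 4 h, 21 rose and 2 fell, against 19.7% of all genes called higher and 20.4% lower (40% in all, against 59.0% of the members). The libraries of treated and untreated cells did not overlap for 14 higher and 3 lower members at 1 h, where 11.3% and 11.8% of all genes had no overlap in these directions, and for 21 and 2 at 4 h, where 18.7% and 18.9% had none. The median log2 fold change of the 39 was 0.10 at 1 h and 0.30 at 4 h, and that of all genes was -0.0049 and 0.0042. Both times were compared with the same untreated libraries, so their results are not independent. In bulk RNA, fewer cells that express a gene and less of its RNA per cell cannot be told apart.

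**Figure D1:**
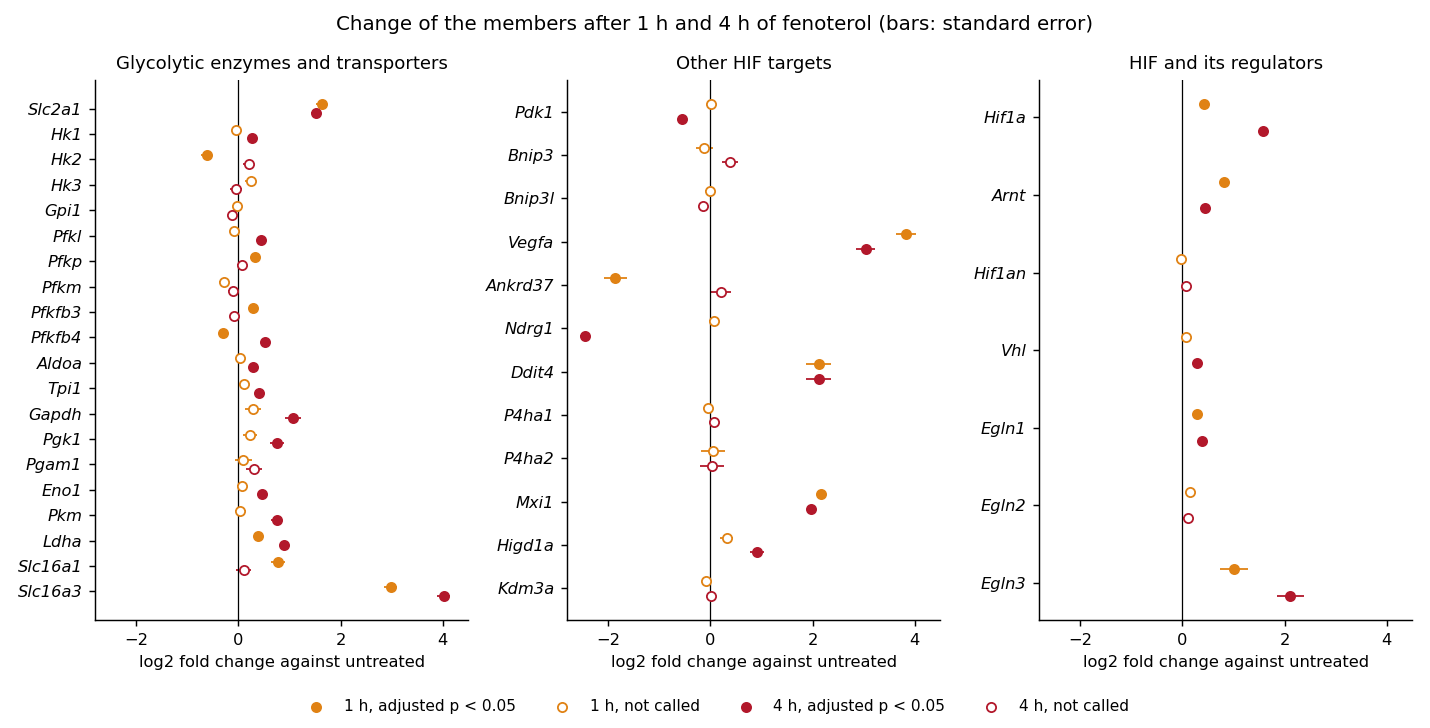
Log2 fold change against untreated BMDMs (x axis) of the 39 tested members (y axis) after 1 h (orange) and 4 h (red) of fenoterol, in panels for glycolytic genes, other HIF targets and HIF with its regulators. Bars are standard errors of the fit over 4 libraries per group, and filled points have an adjusted p under 0.05; *Slc16a3* and *Vegfa* lie farthest to the right, and *Ndrg1* at 4 h and *Ankrd37* at 1 h farthest to the left.

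The 3 groups of members were counted apart, with no test between them, against 10% of all genes called higher and 10.1% lower at 1 h, and 19.7% and 20.4% at 4 h. Of the 20 glycolytic genes, 6 rose and 2 fell at 1 h, and 12 rose and 0 fell at 4 h; DESeq2, limma-voom and edgeR at an unadjusted p under 0.05 also gave 0 falls at 4 h. With the mouse as a replicate block, 13 rose and 1 fell at 4 h, the fall being that of *Gpi1*, which was also called lower without the untreated library of mouse 3. The block called 2918 of all 12386 genes higher and 2952 lower at 4 h, in place of 2437 and 2521. With scaling by library size alone, the split at 1 h was 5 higher and 3 lower, where 949 of all genes were called higher and 1969 lower. Of the 12 other HIF targets tested, 3 rose and 1 fell at 1 h, and 4 rose and 2 fell at 4 h, which is 33.3% and 50% called against 20.1% and 40% of all genes. Of the 7 genes of HIF and its regulators, 4 rose at 1 h and 5 at 4 h, and 0 fell at either time by any of the 3 tools or at an unadjusted p under 0.05. At 1 h, 6 members rose at least 2-fold, where 2.97% of all genes did so, and 1 fell at least 2-fold, where 0.953% did. The 6 were *Slc16a3*, *Vegfa*, *Mxi1*, *Ddit4*, *Slc2a1* and *Egln3*.

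To show what the promoters of these members hold, RefSeq promoters (GRCm38.p6, 250 bases before to 50 after a start site) were searched on both strands for the core of the hypoxia response element, ACGTG or GCGTG, and for the short form TGACG and the full palindrome TGACGTCA of the cAMP response element. A promoter was found for 38 of the 40 members, 56 promoters in all, and none for *Bnip3l* and *Ndrg1*. The core of the hypoxia response element occurred in 76.8% of the members' promoters and in 43.8% of all 32851 promoters. For ACGTG alone these shares were 53.6% and 19.6%. The short form TGACG occurred in 23.2% of the members' promoters and in 20.8% of all. The full palindrome, which holds TGACG on both strands, was in 3.57% of the members' promoters, those of *Ldha* and *Arnt*, and in 1.79% of all. Since many members are listed here because they are known HIF targets, the share of the hypoxia response element is a property of the list and not a result of these libraries.

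The sequences below are the bases before the start site of the 6 members that rose at least 2-fold at 1 h, and of *Ldha* and *Arnt*, which rose at 1 h and hold the full cAMP response element. Bases of the searched motifs are in capitals, those that lie on the other strand included. Where RefSeq gives a symbol several start sites, the outermost of them was taken. GENCODE M21 places the ends of *Slc16a3* and *Ldha* farther out, so the runs of these genes lie within their annotated spans. Runs that would reach into an annotated exon were cut short there or at the end of a motif that reaches into it. They lie at chr11:120948817-120949057 (+ strand, *Slc16a3*), chr17:46032378-46032627 (- strand, *Vegfa*), chr19:53310256-53310505 (+ strand, *Mxi1*), chr10:59951835-59952020 (- strand, *Ddit4*), chr4:119108495-119108713 (+ strand, *Slc2a1*), chr12:54203875-54204124 (- strand, *Egln3*), chr7:46845554-46845803 (+ strand, *Ldha*) and chr3:95434140-95434387 (+ strand, *Arnt*).
Slc16a3: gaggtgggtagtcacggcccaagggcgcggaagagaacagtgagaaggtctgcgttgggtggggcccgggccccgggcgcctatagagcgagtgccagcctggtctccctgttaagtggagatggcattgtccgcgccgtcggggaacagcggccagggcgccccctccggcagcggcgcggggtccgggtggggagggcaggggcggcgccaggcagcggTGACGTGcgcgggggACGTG
Vegfa: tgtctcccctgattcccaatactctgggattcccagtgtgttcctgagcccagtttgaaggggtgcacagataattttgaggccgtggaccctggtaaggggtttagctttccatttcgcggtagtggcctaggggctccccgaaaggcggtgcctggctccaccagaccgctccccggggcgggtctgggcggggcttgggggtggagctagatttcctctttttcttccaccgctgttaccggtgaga
Mxi1: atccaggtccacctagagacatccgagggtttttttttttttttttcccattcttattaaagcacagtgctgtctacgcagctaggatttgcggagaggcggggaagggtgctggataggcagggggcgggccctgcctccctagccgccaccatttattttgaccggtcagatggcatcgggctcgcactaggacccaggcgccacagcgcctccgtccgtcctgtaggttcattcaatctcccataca
Ddit4: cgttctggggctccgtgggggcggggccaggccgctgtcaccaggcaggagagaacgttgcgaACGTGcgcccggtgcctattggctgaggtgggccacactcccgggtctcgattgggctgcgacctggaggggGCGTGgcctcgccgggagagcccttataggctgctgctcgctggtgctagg
Slc2a1: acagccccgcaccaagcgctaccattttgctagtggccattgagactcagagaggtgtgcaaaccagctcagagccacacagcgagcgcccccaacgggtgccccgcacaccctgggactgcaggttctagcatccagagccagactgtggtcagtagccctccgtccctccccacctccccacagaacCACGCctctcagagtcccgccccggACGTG
Egln3: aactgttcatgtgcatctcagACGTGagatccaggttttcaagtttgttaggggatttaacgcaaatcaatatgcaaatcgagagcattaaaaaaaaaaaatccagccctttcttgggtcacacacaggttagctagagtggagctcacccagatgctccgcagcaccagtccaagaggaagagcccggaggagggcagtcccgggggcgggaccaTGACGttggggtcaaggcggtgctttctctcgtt
Ldha: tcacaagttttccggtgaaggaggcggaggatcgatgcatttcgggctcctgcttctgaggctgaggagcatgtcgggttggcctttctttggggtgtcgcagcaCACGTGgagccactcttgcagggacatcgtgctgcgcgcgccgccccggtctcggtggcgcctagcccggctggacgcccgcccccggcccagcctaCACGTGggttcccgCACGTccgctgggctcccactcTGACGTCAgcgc
Arnt: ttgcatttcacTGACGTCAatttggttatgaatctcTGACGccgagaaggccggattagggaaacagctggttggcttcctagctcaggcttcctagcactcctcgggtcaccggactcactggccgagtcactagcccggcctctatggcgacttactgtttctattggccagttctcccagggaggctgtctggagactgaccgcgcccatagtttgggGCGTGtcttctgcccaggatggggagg

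In *Slc16a3*, the TGACG at -29 to -25 from the start overlaps an ACGTG at -27 to -23, so that the same letters count for both motifs, and another ACGTG lies at -14 to -10. *Ldha* holds the full cAMP response element at -12 to -5, with ACGTG cores before it, and *Arnt* holds it at -239 to -232. *Ddit4* and *Slc2a1* each hold both forms of the core and no TGACG in this window, and *Egln3* holds an ACGTG and a TGACG that are far apart. None of the motifs occurs in the 300 bases at the outermost start of *Vegfa* or *Mxi1*; inner starts of both genes have an ACGTG within their windows. At the inner start of *Vegfa*, that ACGTG at -211 to -207 overlaps a TGACG at -209 to -205 on the same strand, and a GCGTG lies at -218 to -214.

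The first steps of the pathway take up glucose and trap it as glucose 6-phosphate. *Slc2a1* (ENSMUSG00000028645, chr4:119108711-119137983), which encodes the glucose transporter GLUT1, stood at 672, 569, 558 and 598 normalized counts in the untreated libraries of mice 1 to 4, at 2177, 1991, 1641 and 1622 at 1 h, and at 1948, 1765, 1584 and 1595 at 4 h. All treated libraries lay above all untreated ones. It rose by 1.63 ± 0.10 on the log2 scale at 1 h (3.09-fold, adjusted p = 2.2e-08) and by 1.52 ± 0.10 at 4 h (2.87-fold, adjusted p = 2.8e-08), and the times did not differ by the test (adjusted p = 0.42).

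The 3 hexokinases, which phosphorylate glucose, gave different calls. *Hk2*, the isozyme that is inducible in many tissues, stood at 769, 892, 668 and 781 normalized counts untreated, at 522, 543, 537 and 424 at 1 h and at 949, 1029, 755 and 849 at 4 h. Every 1 h library was below every untreated library, and the 4 h libraries overlapped the untreated ones. *Hk2* fell by 0.62 ± 0.11 on the log2 scale at 1 h (adjusted p = 0.00093) and had a log2 fold change of 0.21 ± 0.11 at 4 h (adjusted p = 0.15), which passed the threshold with the mouse as a replicate block (0.20, adjusted p = 0.039). *Hk1*, the ubiquitous isozyme, was not called at 1 h (-0.04 ± 0.07, adjusted p = 0.77) and rose at 4 h by 0.27 ± 0.07 (adjusted p = 0.0050), from 2267 to 2580 normalized counts untreated to 2636 to 3249.

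*Hk3*, the hexokinase of myeloid cells, had the highest counts of the 3, at 5361 to 6248 normalized counts untreated, 5722 to 7368 at 1 h and 4269 to 6482 at 4 h. Its log2 fold change was 0.24 ± 0.12 at 1 h (adjusted p = 0.18) and -0.04 ± 0.12 at 4 h (adjusted p = 0.81). With the replicate block its 1 h value passed the threshold (0.24, adjusted p = 0.0067), as did the difference between 4 h and 1 h (-0.29, adjusted p = 0.00064), which was not called without the block (adjusted p = 0.067). That difference was also called by DESeq2, without the filter on low counts, and without the 1 h library of mouse 2, the 4 h library of mouse 1 or the 4 h library of mouse 3 (-0.34 to -0.37). *Gpi1*, glucose-6-phosphate isomerase, was within 9164 to 10752 normalized counts untreated and 8808 to 10052 at 4 h (log2 fold change -0.12 ± 0.06, adjusted p = 0.16). It was called lower at 4 h with the block (adjusted p = 0.049) and without the untreated library of mouse 3 (-0.17, adjusted p = 0.048).

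Phosphofructokinase-1 commits the sugar to glycolysis, and its liver (*Pfkl*), muscle (*Pfkm*) and platelet (*Pfkp*) subunits also gave different calls. *Pfkp* stood at 1865, 1567, 1791 and 1623 normalized counts untreated, at 2376, 1997, 2284 and 1988 at 1 h, and at 1935, 1574, 1787 and 1865 at 4 h. It was thus high in the 1 h libraries alone, with a rise of 0.34 ± 0.08 at 1 h (adjusted p = 0.0085), 0.06 ± 0.08 at 4 h (adjusted p = 0.58) and a fall of 0.27 ± 0.08 from 1 h to 4 h (adjusted p = 0.016). The fall between the times was lost with scaling by library size alone (-0.18, adjusted p = 0.093), without the 1 h library of mouse 1 (-0.22, adjusted p = 0.055) and without the 4 h library of mouse 2 (-0.21, adjusted p = 0.053).

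*Pfkl* was called at 4 h and not at 1 h, and went from 1240, 1275, 1110 and 1390 normalized counts untreated to 1929, 1794, 1555 and 1570 at 4 h, with 1065 to 1326 at 1 h. All 4 h libraries were above all others, and the rise was 0.45 ± 0.09 (adjusted p = 0.00087). *Pfkm* had 549 to 757 normalized counts untreated and 492 to 609 at 1 h, a log2 fold change of -0.28 ± 0.10 (adjusted p = 0.058). It was called lower at 1 h with the block (-0.27, adjusted p = 0.018), with scaling by library size alone (-0.35, adjusted p = 0.015), without the untreated library of mouse 3 (-0.36, adjusted p = 0.0095) and without the 1 h library of mouse 4 (-0.33, adjusted p = 0.038).

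The PFKFB enzymes set the level of fructose 2,6-bisphosphate, an activator of phosphofructokinase-1, and *Pfkfb3* and *Pfkfb4* changed in opposite directions at 1 h. *Pfkfb4* stood at 2055, 2278, 1948 and 2230 normalized counts untreated, at 1595, 1826, 1677 and 1829 at 1 h, and at 3046, 3288, 2970 and 2992 at 4 h. The 3 groups did not overlap. It fell by 0.30 ± 0.06 at 1 h (adjusted p = 0.0041) and rose by 0.53 ± 0.06 at 4 h (adjusted p = 1.0e-05). *Pfkfb3* was at 695 to 838 normalized counts untreated, 864 to 1044 at 1 h and 679 to 848 at 4 h. It rose by 0.29 ± 0.08 at 1 h (adjusted p = 0.024) and overlapped the untreated libraries at 4 h (-0.08 ± 0.09, adjusted p = 0.49). Its 1 h rise was lost with scaling by library size alone (0.22, adjusted p = 0.069), and without the untreated library of mouse 1 (0.23, adjusted p = 0.080), the 1 h library of mouse 2 (0.25, adjusted p = 0.076) or the 1 h library of mouse 3 (0.28, adjusted p = 0.065).

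From aldolase to pyruvate kinase, the enzymes that split the hexose and oxidize and dephosphorylate the trioses, 6 of 7 rose at 4 h, where 19.7% of all genes were called higher. At 1 h, 0 of the 7 were called by edgeR, DESeq2 or limma-voom, or had an unadjusted p under 0.05 with edgeR, where 20.1% of all genes were called by edgeR. *Pkm* (ENSMUSG00000032294, chr9:59656368-59679375), which encodes pyruvate kinase, stood at 12532, 10072, 10568 and 9697 normalized counts untreated, at 12422, 9920, 11042 and 10666 at 1 h, and at 21874, 17299, 17051 and 15865 at 4 h. The untreated and 1 h libraries overlapped, and the 4 h libraries were above both. The log2 fold change was 0.04 ± 0.10 at 1 h (adjusted p = 0.86) and 0.75 ± 0.10 at 4 h (1.68-fold, adjusted p = 4.4e-05).

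*Aldoa*, which encodes aldolase A, had the highest counts of all members, 18660 to 20243 normalized counts untreated and 20845 to 26160 at 4 h, a rise of 0.29 ± 0.06 (adjusted p = 0.0022). *Tpi1*, triosephosphate isomerase, rose by 0.40 ± 0.06 (adjusted p = 9.0e-05), and *Eno1*, enolase, by 0.47 ± 0.09 (adjusted p = 0.00051). *Pgk1*, phosphoglycerate kinase, rose by 0.77 ± 0.14 (adjusted p = 0.00039), from 139 to 186 normalized counts untreated to 243 to 300.1 at 4 h. *Pgam1*, phosphoglycerate mutase, had a log2 fold change of 0.30 ± 0.16 (adjusted p = 0.15) and overlapped between all groups.

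*Gapdh*, glyceraldehyde-3-phosphate dehydrogenase, was read at only 57.1, 49.5, 43.4 and 67.8 normalized counts untreated, at 69.8, 70.9, 70.5 and 55.3 at 1 h and at 124, 109.5, 104 and 119 at 4 h. It rose by 1.06 ± 0.15 at 4 h (adjusted p = 6.2e-05), and all 4 h libraries were above the others. This level is far below that of its neighbours in the pathway, and it is uncertain: 27.8% of the 50-base stretches of *Gapdh* also occur in other genes. Of those genes, 98 were counted as copies: pseudogenes that share at least 50 such stretches with it, or other genes that share at least 500. These 98 hold 3661 counts to its own 957. With their counts added, the 4 h rise was 0.48 ± 0.09 (adjusted p = 0.00046), an alternative chosen after the data were seen. *Eno1* (72.2%), *Pgk1* (68.0%), *Pgam1* (41.5%) and *Pkm* (34.4%) share stretches of read length with other genes too, so their levels are uncertain, whereas their calls stayed the same with the counts of near-identical copies added.

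The last steps turn pyruvate into lactate and export it. *Ldha* (ENSMUSG00000063229, chr7:46841475-46855627), which encodes the A subunit of lactate dehydrogenase, stood at 5040, 4360, 4899 and 4906 normalized counts untreated, at 6889, 5804, 6357 and 6198 at 1 h, and at 10515, 8413, 8273 and 8598 at 4 h. The 3 groups did not overlap. The rise was 0.39 ± 0.08 at 1 h (adjusted p = 0.0025) and 0.90 ± 0.08 at 4 h (1.86-fold, adjusted p = 5.0e-07). Of the RefSeq starts of *Ldha*, the outermost, printed above, has the full cAMP response element at -12 to -5. The window at its inner start has none, and a link of the element to the rise was not tested.

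*Slc16a3* (ENSMUSG00000025161, chr11:120948480-120960868), which encodes the lactate exporter MCT4, had the largest rise of all 39 members at 4 h. It stood at 738, 763, 692 and 758.5 normalized counts untreated, at 5796, 7324, 4854 and 5255 at 1 h, and at 11891, 14235, 10759 and 10835 at 4 h. Every library was above every library of the time before. The rise was 2.98 ± 0.13 at 1 h (7.87-fold, adjusted p = 2.4e-10) and 4.02 ± 0.13 at 4 h (16.2-fold, adjusted p = 2.8e-11), and the 4 h libraries were 1.04 ± 0.12 above those at 1 h (adjusted p = 6.5e-06).

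*Slc16a1*, which encodes the lactate transporter MCT1, was called higher at 1 h and not at 4 h. Its normalized counts were 155, 181, 141 and 166 untreated, 348, 269, 249 and 226.5 at 1 h, and 199, 158.5, 157 and 174.5 at 4 h. The 1 h libraries were above all others, and the rest overlapped. It rose by 0.77 ± 0.14 at 1 h (adjusted p = 0.00095) and was 0.11 ± 0.14 from untreated at 4 h (adjusted p = 0.59). *Slc16a7*, which encodes the related transporter MCT2, is no member and was named after its values were seen. Its mean was 1239 normalized counts untreated, 1264 at 1 h and 860.5 at 4 h, a fall of 0.53 ± 0.08 at 4 h (adjusted p = 5.6e-05).

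**Figure D2:**
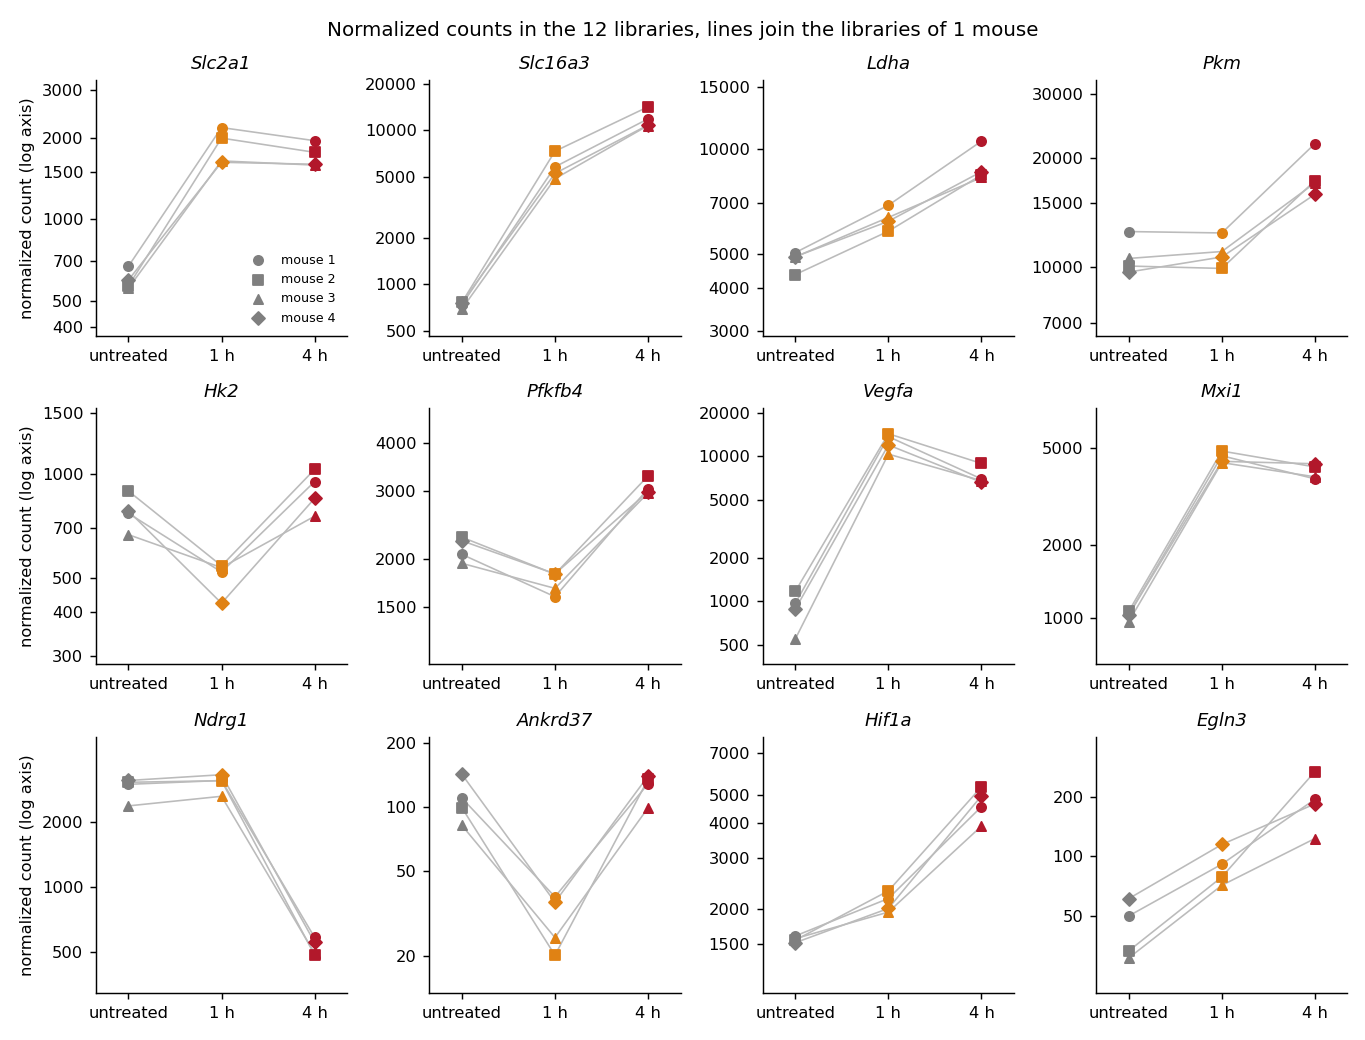
Normalized counts (y axis, log scale) of 12 members in untreated BMDMs and after 1 h and 4 h of fenoterol (x axis), 1 point per library; the symbol gives the mouse and lines join its libraries. *Slc16a3*, *Ldha*, *Hif1a* and *Egln3* climb at both times, *Slc2a1*, *Vegfa* and *Mxi1* are near or past their peak at 1 h, *Pkm* rises at 4 h, *Hk2*, *Pfkfb4* and *Ankrd37* dip at 1 h, and *Ndrg1* falls at 4 h.

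Levels of different genes can be compared only per length, here as normalized counts per kilobase of annotated exon. On this scale *Aldoa* was the highest glycolytic gene in untreated BMDMs with 6576 ± 254 (SD, n = 4), followed by *Pkm* with 2143 ± 252, and *Tpi1*, *Gpi1*, *Hk3* and *Ldha*, which lay between 1451 ± 91.1 and 1623 ± 52.7. At the other end stood *Gapdh* and *Slc16a1* with 13.2 ± 2.54 and 36.3 ± 3.83. *Slc16a3* went from 139 ± 6.11 untreated to 1092 ± 204 at 1 h and 2243 ± 305 at 4 h, which overlapped the 4 h level of *Ldha*, 2704 ± 318, within their standard deviations.

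**Figure D3:**
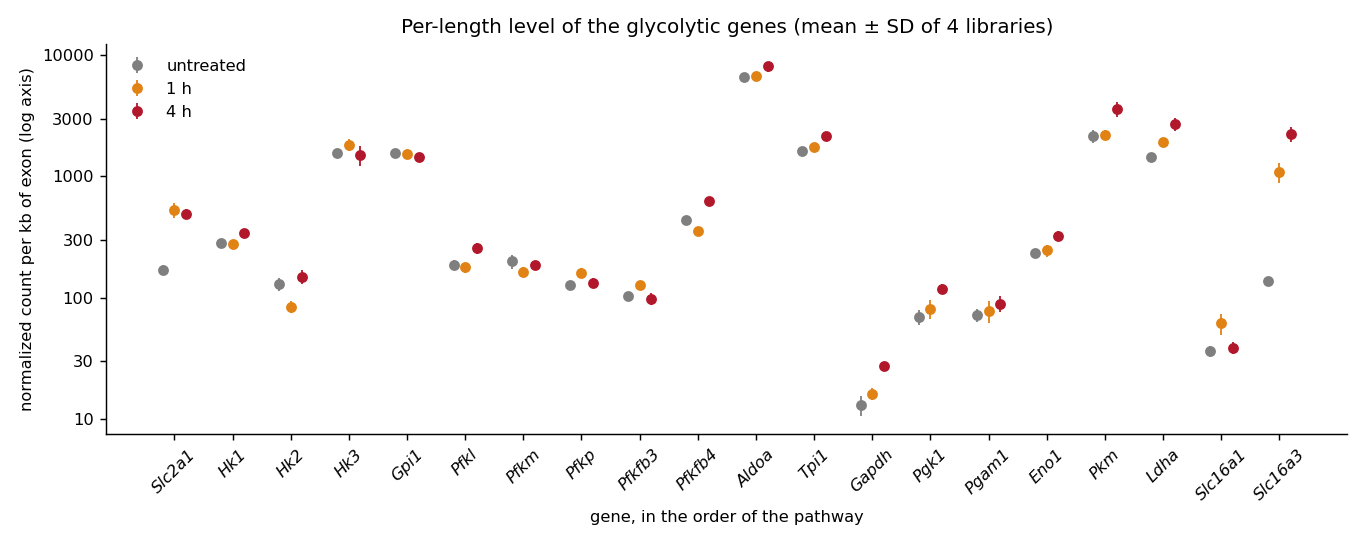
Normalized counts per kilobase of exon (y axis, log scale) of the 20 glycolytic genes in the order of the pathway (x axis), as mean ± SD of 4 libraries in untreated BMDMs and after 1 h and 4 h of fenoterol. *Aldoa* is highest and *Gapdh*, whose level is uncertain, lowest, and *Slc16a3* at the end of the pathway shows the widest distance between the groups.

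Where a step has several isozymes among the members, the share of each in their summed per-length level was followed, as a description with no test; related genes that are no members, such as *Slc16a7*, *Pfkfb1* and *Pfkfb2*, are outside these sums. Of the level of *Slc16a1* and *Slc16a3* together, *Slc16a3* made up 79.3% ± 1.09 (SD, n = 4) untreated, 94.6% ± 1.09 at 1 h and 98.3% ± 0.29 at 4 h, while the summed level of both rose from 175 ± 9.76 to 1154 ± 207 and 2282 ± 304 normalized counts per kilobase. The ranges of the 3 groups did not overlap. Of *Pfkfb3* and *Pfkfb4* together, *Pfkfb4* made up 80.7% ± 1.41 untreated, 73.5% ± 2.12 at 1 h and 86.5% ± 0.72 at 4 h, again without overlap.

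*Hk3* made up most of the 3 hexokinases, 78.9% ± 1.64 untreated, 83.4% ± 1.24 at 1 h and 75.0% ± 3.60 at 4 h, and *Hk2* went from 6.67% ± 0.98 to 3.91% ± 0.62 and 7.71% ± 1.93. Of the phosphofructokinase-1 subunits, *Pfkl* had 36.5% ± 2.31, 35.3% ± 1.54 and 44.5% ± 1.90, *Pfkm* 38.6% ± 2.48, 32.7% ± 2.03 and 32.2% ± 1.95, and *Pfkp* 24.9% ± 2.83, 32.0% ± 2.92 and 23.3% ± 2.44. *Pfkl* and *Pfkm* overlapped in untreated BMDMs, and their order depended on the length used: with the longest transcript in place of all exons, *Pfkl* had 43.9% ± 2.55 and *Pfkm* 30.2% ± 2.17 there.

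**Figure D4:**
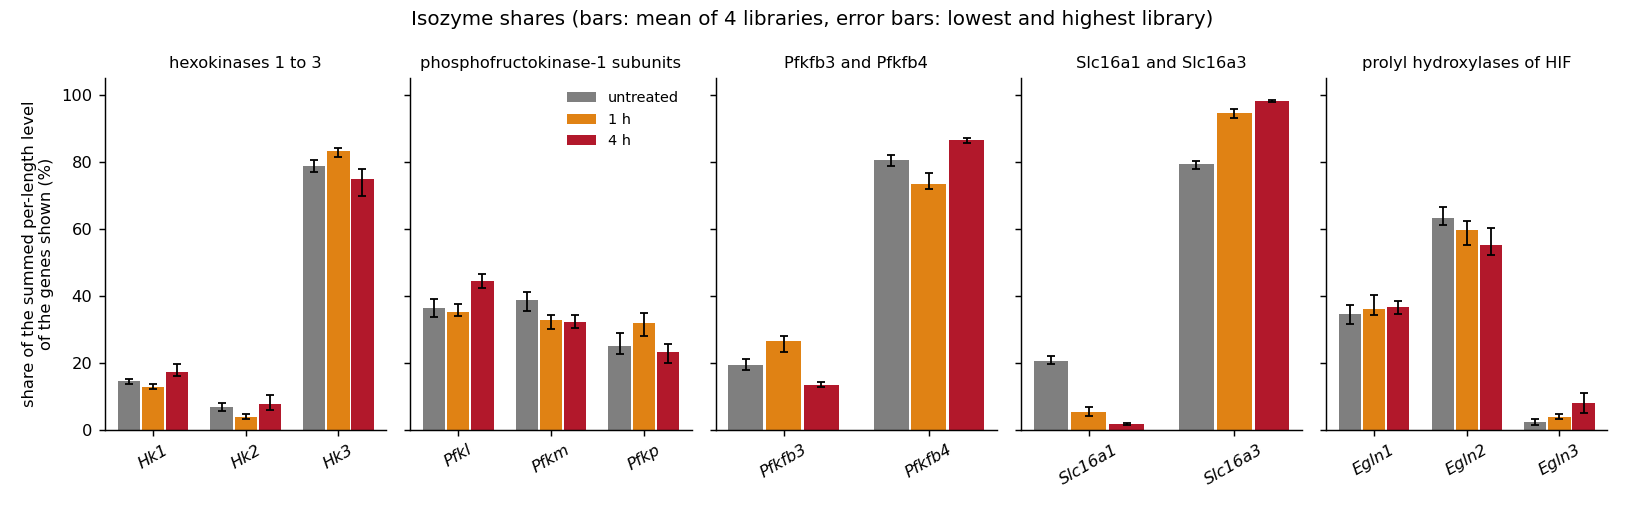
Share of each isozyme in the summed normalized count per kilobase of exon of the members shown in its panel (y axis, percent) in untreated BMDMs and after 1 h and 4 h of fenoterol, as the mean of 4 libraries with the lowest and highest library as error bars. *Slc16a3* makes up 98.3% of its sum with *Slc16a1* at 4 h, *Hk2* and *Pfkfb4* are low at 1 h, and *Egln3* grows from a small share of the HIF prolyl hydroxylases.

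Among the HIF targets outside glycolysis, 3 rose early and strongly. *Vegfa* (ENSMUSG00000023951, chr17:46016993-46032369), which encodes the angiogenic factor VEGF-A, stood at 967, 1170, 549 and 884 normalized counts untreated, at 13669, 14309, 10349 and 11965 at 1 h, and at 6977, 8925, 6785 and 6624 at 4 h. The 3 groups did not overlap, and every 4 h library was below every 1 h library. *Vegfa* rose by 3.82 ± 0.19 at 1 h (14.1-fold, adjusted p = 1.7e-09), the largest rise of the 39 members at that time, and by 3.04 ± 0.19 at 4 h (8.23-fold, adjusted p = 1.0e-08).

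*Mxi1* (ENSMUSG00000025025, chr19:53310518-53375810), which encodes a repressor that competes with MYC for the partner MAX, stood at 1035, 1067, 968 and 1032 normalized counts untreated, at 4649, 4860, 4355 and 4409 at 1 h, and at 3736, 4182, 3809 and 4310 at 4 h. The treated libraries were all far above the untreated ones. It rose by 2.16 ± 0.06 at 1 h (4.46-fold, adjusted p = 5.2e-12) and by 1.97 ± 0.06 at 4 h (3.91-fold, adjusted p = 1.9e-11). The fall of 0.19 ± 0.06 from 1 h to 4 h (adjusted p = 0.020) was lost with scaling by library size alone (-0.09, adjusted p = 0.21) and without the 1 h library of mouse 2 (-0.16, adjusted p = 0.066), the 4 h library of mouse 1 (-0.16, adjusted p = 0.063) or that of mouse 3 (-0.16, adjusted p = 0.062).

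*Ddit4* (ENSMUSG00000020108, chr10:59949669-59951834), which encodes REDD1, an inhibitor of mTORC1, stood at 56.2, 65.6, 49.2 and 60.3 normalized counts untreated, at 269, 306, 173 and 252 at 1 h, and at 292, 349, 164 and 198 at 4 h. Mouse 3 had the lowest value in each group, and the treated groups overlapped each other and not the untreated one. The rise was 2.12 ± 0.24 at both times (4.34-fold, adjusted p = 1.5e-05 at 1 h and 6.5e-06 at 4 h). *Higd1a*, a small mitochondrial protein, was at 73.6 to 94.7 normalized counts untreated, 101 to 116 at 1 h and 140 to 182 at 4 h. It did not pass the threshold at 1 h (0.32 ± 0.13, adjusted p = 0.12), although its groups did not overlap, and rose at 4 h by 0.92 ± 0.13 (adjusted p = 5.1e-05).

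Other HIF targets fell. *Ndrg1* (ENSMUSG00000005125, chr15:66929318-66969640), a gene named for its regulation by MYC family members, stood at 2992, 3058, 2378 and 3117 normalized counts untreated, at 3118, 3110, 2634 and 3315 at 1 h, and at 586, 486, 494 and 555 at 4 h. The untreated and 1 h libraries overlapped, and the 4 h libraries were below all of them. *Ndrg1* had a log2 fold change of 0.08 ± 0.09 at 1 h (adjusted p = 0.65) and fell by 2.44 ± 0.10 at 4 h (adjusted p = 1.7e-10), to 0.184 of its untreated level. It was the only member at least 2-fold lower at 4 h, where 4.09% of all genes were.

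*Pdk1*, which encodes a kinase that shuts pyruvate out of the mitochondrial oxidation, was at 958.5, 939, 938 and 1053 normalized counts untreated, at 1097, 894.5, 1028 and 929 at 1 h, and at 679, 723, 628 and 626 at 4 h. It fell by 0.55 ± 0.07 at 4 h (adjusted p = 2.7e-05), when all of its libraries were below the others. *Ankrd37*, an ankyrin-repeat gene, dipped at 1 h, with 109.9, 99.1, 81.9 and 142 normalized counts untreated, 38.0, 20.3, 24.5 and 35.9 at 1 h, and 128, 134.5, 99.0 and 139 at 4 h. It fell by 1.86 ± 0.22 at 1 h (adjusted p = 2.3e-05), the largest fall of the 39 at that time, and was not called at 4 h (0.21 ± 0.20, adjusted p = 0.43). Of its exon bases, 26.4% lie opposite exons of *Ufsp2* and *Lrp2bp*, which hold 12253 counts to its 1071; since the strand option of the counting is not stated, part of the reads could belong to them, and this was not tested.

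The other 5 targets tested did not pass the threshold. *Bnip3* and *Bnip3l*, which encode mitophagy receptors, *P4ha1* and *P4ha2*, subunits of the collagen prolyl hydroxylases, and *Kdm3a*, a histone demethylase, were not called against untreated at either time, with log2 fold changes from -0.13 to 0.38. *Bnip3* was at 189 to 209 normalized counts untreated, 135 to 252 at 1 h and 208 to 312 at 4 h. Its 4 h value of 0.38 ± 0.16 (adjusted p = 0.079) passed the threshold with the block (0.36, adjusted p = 0.022), with the groups compared fitted alone (0.39, adjusted p = 0.028) and without the 4 h library of mouse 3 (0.48, adjusted p = 0.041). *P4ha1* held 95.6% ± 0.89 (SD, n = 4) of the per-length level of its pair untreated and 95.7% ± 1.09 at 4 h.

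Both subunits of HIF-1 rose, with different time courses. *Hif1a* (ENSMUSG00000021109, chr12:73901375-73947530), which encodes the oxygen-labile α subunit, stood at 1604, 1551, 1570 and 1519 normalized counts untreated, at 2170, 2308, 1945 and 2003 at 1 h, and at 4555, 5343, 3894 and 4971 at 4 h. Every library was above every library of the time before. It rose by 0.43 ± 0.09 at 1 h (1.35-fold, adjusted p = 0.0020) and by 1.59 ± 0.09 at 4 h (3.00-fold, adjusted p = 2.6e-09).

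*Arnt* (ENSMUSG00000015522, chr3:95434388-95497240), which encodes the constant β subunit, stood at 1670, 1624, 1465 and 1628 normalized counts untreated, at 2818, 3147, 2678 and 2641 at 1 h, and at 2146, 2328, 2083 and 2139 at 4 h. It was highest at 1 h, and its 3 groups did not overlap. The rise was 0.82 ± 0.07 at 1 h (1.77-fold, adjusted p = 2.6e-07) and 0.45 ± 0.06 at 4 h (1.36-fold, adjusted p = 6.5e-05).

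Of the enzymes that mark HIF for removal, *Egln3*, which encodes the prolyl hydroxylase PHD3, rose most. It stood at 50.2, 33.5, 30.8 and 61.3 normalized counts untreated, at 91.4, 78.8, 71.5 and 115 at 1 h, and at 194, 267, 123 and 184 at 4 h. The groups did not overlap, though their spread was wide. The rise was 1.01 ± 0.27 at 1 h (adjusted p = 0.015) and 2.11 ± 0.26 at 4 h (4.32-fold, adjusted p = 1.3e-05). Per length it was still the least of the 3 PHD genes, with 2.27% ± 0.78 (SD, n = 4) of their summed level untreated, 3.92% ± 0.76 at 1 h and 8.04% ± 2.38 at 4 h.

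*Egln1*, which encodes PHD2, rose from 835 to 1006 normalized counts untreated to 1047 to 1135 at 1 h (0.29 ± 0.06, adjusted p = 0.0044) and 1131 to 1222 at 4 h (0.38 ± 0.06, adjusted p = 0.00021). *Egln2*, which encodes PHD1 and had the largest share of the 3 (63.2% ± 2.44 untreated), was not called at either time (0.15 ± 0.08, adjusted p = 0.26, and 0.10 ± 0.08, adjusted p = 0.36), except at 1 h without the 1 h library of mouse 1 (0.23, adjusted p = 0.044). *Vhl*, which recognizes hydroxylated HIF, was not called at 1 h (0.07 ± 0.08, adjusted p = 0.64) and rose by 0.30 ± 0.08 at 4 h (adjusted p = 0.010), from 432.5 to 505 normalized counts untreated to 523 to 658. *Hif1an*, which encodes the asparaginyl hydroxylase FIH, was not called at either time (-0.03 ± 0.06 and 0.07 ± 0.06).

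The libraries of both treated groups were also compared with each other, to see which members kept moving between 1 h and 4 h. At 4 h, 18 of the 39 were higher than at 1 h and 8 lower, where 18.7% of all genes were called higher and 19.8% lower (38.5% in all). At least 2-fold, 4 were higher and 1 lower, where 2.19% and 4.15% of all genes were. The same numbers, 18 and 8, had libraries that did not overlap, where 17.7% and 18.2% of all genes had none. With scaling by library size alone, the split was 23 higher and 6 lower for the members, 5 and 3 in place of 3 and 4 for the other HIF targets, and 65.7% in place of 48.6% of the called genes were higher. Of the members called higher at both times, *Egln3*, *Hif1a*, *Ldha* and *Slc16a3* were further up at 4 h, *Arnt*, *Mxi1* and *Vegfa* had come down, and *Ddit4*, *Egln1* and *Slc2a1* showed no called difference. *Ankrd37* (2.07 ± 0.22, adjusted p = 4.6e-06) was the member that regained most after 1 h, and *Ndrg1* (-2.52 ± 0.10, adjusted p = 2.3e-10) the one that lost most.

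For *Vhl* and *Bnip3*, the difference between the times lay near the threshold. The 0.23 ± 0.08 of *Vhl* (adjusted p = 0.043) was lost without the 1 h library of mouse 1 (0.23), mouse 3 (0.18) or mouse 4 (0.22) and without the 4 h library of mouse 1 (0.25) or mouse 2 (0.14), with adjusted p of 0.050 to 0.15, and also without the filter on low counts (0.23, adjusted p = 0.065) and with the groups compared fitted alone (0.22, adjusted p = 0.060). The 0.51 ± 0.17 of *Bnip3* (adjusted p = 0.026) was lost without the 1 h library of mouse 1 (0.46), mouse 3 (0.37) or mouse 4 (0.49) and without the 4 h library of mouse 2 (0.41), with adjusted p of 0.056 to 0.094, and with the groups compared fitted alone (0.50, adjusted p = 0.052).

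Genes around the pathway that are not members were read from 6 further lists. Of 16 other glycolysis genes tested, 0 were called at 1 h by edgeR or limma-voom and 1 by DESeq2. By edgeR, 20.1% of all genes were called at 1 h. At an unadjusted p under 0.05 there were 5, for which the share of all genes was not counted. At 4 h, 4 rose and 4 fell, where 19.7% and 20.4% of all genes did. *Pgm2*, a phosphoglucomutase, and *Bpgm*, bisphosphoglycerate mutase, rose by 0.60 ± 0.08 (adjusted p = 2.5e-05) and 0.59 ± 0.08 (adjusted p = 4.5e-05). *Slc2a3*, which encodes the glucose transporter GLUT3, fell at 4 h by 1.10 ± 0.12 (adjusted p = 4.0e-06), from 231 to 262.5 normalized counts untreated to 90.7 to 134, while *Slc2a1* was up. The muscle enolase *Eno3* fell by 0.68 ± 0.12 (adjusted p = 0.00047).

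Of 26 further HIF targets tested, 3 rose and 5 fell at 1 h, and 7 rose and 8 fell at 4 h, where 10% and 10.1% of all genes were called higher and lower at 1 h, and 19.7% and 20.4% at 4 h. *Hilpda*, which encodes a lipid droplet protein that inhibits the lipase ATGL, rose from 80.5 to 113 normalized counts untreated to 1041 to 1554 at 1 h (3.71 ± 0.14, adjusted p = 8.4e-11) and 608 to 767 at 4 h (2.86 ± 0.14, adjusted p = 1.2e-09). *Ero1l*, an oxidase of the endoplasmic reticulum, rose by 0.36 ± 0.10 at 1 h (adjusted p = 0.015) and 0.62 ± 0.10 at 4 h (adjusted p = 0.00012). *Pdgfb*, a growth factor chain, fell by 1.54 ± 0.14 at 1 h (adjusted p = 1.0e-06) and fell by 1.80 ± 0.14 at 4 h (adjusted p = 1.0e-07), and *Angptl4*, an inhibitor of lipoprotein lipase, fell by 1.57 ± 0.28 (adjusted p = 0.00091) and 1.38 ± 0.27 (adjusted p = 0.00095).

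Of 13 further genes of the HIF machinery tested, 3 rose and 2 fell at 1 h, and 3 rose and 1 fell at 4 h, where 20.1% and 40% of all genes were called. With the replicate block, 7 of the 13 were called at 4 h, and 5870 of all 12386 genes in place of 4958. *Cited2*, whose product competes with HIF-1α for the coactivators CBP and p300, fell from 1061 to 1343 normalized counts untreated to 318 to 356 at 1 h (-1.79 ± 0.08, adjusted p = 5.0e-10) and 393 to 459 at 4 h (-1.47 ± 0.08, adjusted p = 2.5e-09). *Ep300*, which encodes p300, fell at 1 h by 0.52 ± 0.06 (adjusted p = 3.1e-05). *Cul2*, the scaffold of the von Hippel-Lindau ligase, rose by 1.01 ± 0.09 at 1 h (adjusted p = 1.1e-06) and 0.47 ± 0.09 at 4 h (adjusted p = 0.00082). *Hsp90aa1*, a chaperone, rose at 1 h by 0.73 ± 0.09 (adjusted p = 4.4e-05), and *Elob*, an adaptor of the ligase, at 4 h by 0.24 ± 0.07 (adjusted p = 0.018). The rise of *Elob* was lost without the untreated library of mouse 1 (0.22, adjusted p = 0.053) or the 4 h library of mouse 3 (0.21, adjusted p = 0.054).

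Routes that branch from glycolysis were read against the same background of 20.1% of all genes called at 1 h and 40% at 4 h. Of the 7 genes of the pentose phosphate pathway, 0 were called at 1 h by edgeR, DESeq2 or limma-voom, or at an unadjusted p under 0.05, and *Taldo1* (0.50 ± 0.09, adjusted p = 0.00033) and *Pgd* (0.23 ± 0.07, adjusted p = 0.022) rose at 4 h. The rise of *Pgd* was lost without the untreated library of mouse 3 (0.18) or mouse 4 (0.21) or the 4 h library of mouse 1 (0.17), with adjusted p of 0.069 to 0.088. Of 12 genes for the entry of pyruvate into the mitochondrial oxidation, 2 rose and 2 fell at 1 h, and 3 rose and 1 fell at 4 h. *Pdp1*, the phosphatase that activates pyruvate dehydrogenase, fell by 0.32 ± 0.09 at 1 h (adjusted p = 0.020) and 0.83 ± 0.09 at 4 h (adjusted p = 3.5e-06), and *Pdk3*, a kinase that inactivates it, rose at 4 h by 0.76 ± 0.15 (adjusted p = 0.00086) while *Pdk1* was down. *Pdha1* (0.19 ± 0.05, adjusted p = 0.017) and *Dlat* (0.22 ± 0.06, adjusted p = 0.024), parts of the complex, rose at 1 h, and the kinase gene *Pdk2* fell (-0.34 ± 0.09, adjusted p = 0.014). *Pdhx* rose at 4 h (0.29 ± 0.07, adjusted p = 0.0029). The 1 h calls of *Pdha1* (0.12 and 0.19) and *Dlat* (0.15 and 0.22) were lost with scaling by library size alone and without the filter on low counts, with adjusted p of 0.051 to 0.13. That of *Dlat* was also lost without the untreated library of mouse 2 (0.21) or mouse 4 (0.22) or the 1 h library of mouse 1 (0.19), and that of *Pdp1* without the untreated library of mouse 3 (-0.28) or mouse 4 (-0.30) or the 1 h library of mouse 1 (-0.28), with adjusted p of 0.053 to 0.074.

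Of 8 genes of gluconeogenesis and glycogen tested, 1 rose and 2 fell at each time, where 20.1% of all genes were called at 1 h and 40% at 4 h. With the replicate block, 5 of the 8 were called at 4 h, and 5870 of all 12386 genes. *Gyg*, which encodes glycogenin, the primer of glycogen synthesis, fell from 3681 to 4167 normalized counts untreated to 2970 to 3359 at 1 h (-0.35 ± 0.06, adjusted p = 0.0013) and 1232 to 1473 at 4 h (-1.58 ± 0.07, adjusted p = 2.2e-10). *Pck2*, the mitochondrial phosphoenolpyruvate carboxykinase, fell by 0.34 ± 0.06 at 1 h (adjusted p = 0.0014) and 0.65 ± 0.06 at 4 h (adjusted p = 1.4e-06). *G6pc3*, a glucose-6-phosphatase, rose by 0.41 ± 0.06 (adjusted p = 0.00031) and 0.57 ± 0.06 (adjusted p = 5.5e-06).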

How the data were processed

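RNA-seq of 12 libraries of BMDMs was read from 1 table of raw counts per gene. The deposited counts were made by the authors from stranded, single-end reads of 50 bases, aligned with TopHat 2.0.11 to GRCm38 and counted with HTSeq 0.8.0; the strand option and the annotation release are not given in the sources used here. Of the 53379 gene IDs, 53274 matched GENCODE M21, which gave symbols and positions, and 29819 had no count. Totals of 14580533 to 24153284 counts per library set the precision.

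Counts were tested in 1 fit over the 3 groups with edgeR 4.0.16 (R 4.3.3): TMM scaling, filterByExpr, quasi-likelihood test, and Benjamini-Hochberg adjustment over 12386 genes in each comparison. The study's own analysis used variance-stabilized counts and limma. p-values rest on 4 mice, the same ones in each group, and this fit had no term for the mouse. Alternatives were DESeq2 1.42.0, limma-voom (limma 3.58.1), other scalings and filters, the groups compared alone, an adjusted p under 0.01, the mouse as a replicate block, and each library left out; adding the counts of near-identical copies was chosen after the data were seen. The code was tested on simulated data. Replicates differed by more than counting noise (chi-square per degree of freedom 9.71 to 20), and each of the 12 libraries was closer to its own group's mean than to another's.

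The block rests on the labels, which give each mouse's number in all 3 groups, and deviations from the group means correlated at 0.290 to 0.561 for libraries of the same mouse and at -0.304 to 0.0912 for different mice. Deviations within a group sum to 0, so values above 0 for the same mouse force those for different mice below 0 on average. The members and the further lists were chosen with earlier results of these data known. From each further list, the 2 largest rises and falls per comparison with untreated were named among called genes with a mean of at least 50 normalized counts and the same direction in 4 of 4 mice. Promoters were printed for members that rose at least 2-fold at 1 h, and for those with the full cAMP response element. Figures were drawn with matplotlib 3.10.9.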

Additional observations from a re-analysis of the deposited data

Results flagged for a closer look

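In 7 of 120 groups of 4 libraries, 1 library stood apart from the rest by Dixon's test, where chance gives about 1 in 20. They were *Aldoa* in the untreated library of mouse 1 (20243 normalized counts, others 18660 to 18858), *Gapdh* in the 1 h library of mouse 4 (55.3, others 69.8 to 70.9), *Ldha* in the 4 h library of mouse 1 (10515, others 8273 to 8598), *Vegfa* in the 4 h library of mouse 2 (8925, others 6624 to 6977), *Ndrg1* in the untreated library of mouse 3 (2378, others 2992 to 3117), *Vhl* in the 4 h library of mouse 2 (658, others 523 to 539.7) and *Egln1* in the 1 h library of mouse 3 (1047, others 1121 to 1135).

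For 26 members the effect at 4 h differed from that at 1 h by edgeR's test of the difference itself (adjusted p under 0.05), as it did for 38.5% of all genes. On the log2 scale, 4 h minus 1 h was 2.07 for *Ankrd37*, 1.16 for *Hif1a*, 1.10 for *Egln3* and 1.04 for *Slc16a3*. It was 0.83 for *Pfkfb4*, 0.82 for *Hk2*, 0.77 for *Gapdh*, 0.71 for *Pkm*, 0.60 for *Higd1a*, 0.54 for *Pgk1*, 0.52 for *Pfkl*, 0.51 for *Bnip3* and 0.50 for *Ldha*. It was 0.40 for *Eno1*, 0.30 for *Hk1*, 0.30 for *Tpi1*, 0.26 for *Aldoa* and 0.23 for *Vhl*. It was -0.19 for *Mxi1*, -0.27 for *Pfkp*, -0.37 for *Pfkfb3*, -0.38 for *Arnt*, -0.57 for *Pdk1*, -0.66 for *Slc16a1*, -0.78 for *Vegfa* and -2.52 for *Ndrg1*.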

How the results depend on the processing

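With 4 mice per group, small changes pass or miss the threshold by the choice of fit. Over the 39 members and 3 comparisons, 880 of 936 values with 1 library left out kept their direction and their side of the threshold. With the mouse as a replicate block, 111 of 117 did; the block added the calls of *Hk3* (0.24 at 1 h and -0.29 between the times), *Pfkm* (-0.27 at 1 h), *Hk2* (0.20 at 4 h), *Gpi1* (-0.12 at 4 h) and *Bnip3* (0.36 at 4 h) and changed no other call of a member. With scaling by library size alone, 100 of 117 did; calls were added between the times for *Pfkm* (0.26), *P4ha1* (0.21), *Kdm3a* (0.19), *Hif1an* (0.20) and *Egln1* (0.18).

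Sign changes touched uncalled values only. With scaling by library size alone, the 1 h values became -0.0356 for *Aldoa*, -0.0290 for *Pkm*, -0.0466 for *Pdk1* and -0.0134 for *P4ha2*, and the differences between the times 0.0054 for *Gpi1*, 0.0917 for *Ddit4*, 0.0734 for *P4ha2* and 0.0440 for *Egln2*. limma-voom gave -0.0185 for *P4ha2* at 4 h, and *Ddit4* between the times was 0.0027 with no filter and 0.00024 with copies added. Leaving out 1 library gave at 1 h -0.0697 to 0.0088 for *Gpi1*, -0.0235 to 0.12 for *Pkm*, -0.0314 to 0.0674 for *Pdk1*, -0.31 to 0.0072 for *Bnip3*, -0.0610 to 0.0830 for *Bnip3l*, -0.00077 to 0.15 for *Ndrg1*, -0.13 to 0.19 for *P4ha2* and -0.0614 to 0.0125 for *Hif1an*. At 4 h it gave -0.13 to 0.0628 for *Hk3*, -0.13 to 0.16 for *P4ha2* and -0.0615 to 0.0748 for *Kdm3a*, and between the times -0.20 to 0.16 for *Ddit4*, -0.19 to 0.17 for *P4ha2* and -0.13 to 0.0012 for *Egln2*. The cause was not tested.

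An adjusted p under 0.01 left 1580 genes called at 1 h. Shares computed with the longest transcript moved, in the order untreated, 1 h and 4 h, to 71.4%, 76.4% and 66.8% for *Hk3*, 30.2%, 25.2% and 24.45% for *Pfkm*, 78.8%, 71.2% and 85.1% for *Pfkfb4*, 69.5%, 66.4% and 62.1% for *Egln2* and 91.6%, 91.2% and 91.8% for *P4ha1*, and for *Slc16a3* to 82.5% untreated and 98.6% at 4 h. Other scalings cannot change a share within a library.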

Other observations

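Together the 40 members took a growing share of all counts. They held 0.432% to 0.464% of a library's counts untreated, 0.541% to 0.584% at 1 h and 0.640% to 0.728% at 4 h, with no overlap between the groups. The glycolytic genes held 0.340% to 0.368%, 0.363% to 0.401% and 0.482% to 0.575%, so that their untreated and 1 h ranges overlapped. The other HIF targets held their highest share at 1 h, 0.119% to 0.140% against 0.0551% to 0.0606% untreated and 0.0900% to 0.108% at 4 h. *Vegfa* (mean 893 normalized counts untreated and 12573 at 1 h) and *Mxi1* (1026 and 4569) made up most of that rise, while the median log2 fold change of the 12 targets tested was 0.0384 at 1 h and 3 of them rose.

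*Adm* was too low to be tested. Its normalized counts were 9.52, 1.34, 4.82 and 6.46 untreated, 6.16, 2.25, 2.94 and 1.02 at 1 h, and 4.17, 6.26, 2.77 and 7.79 at 4 h, and the 3 groups overlapped.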
